A study of Mus musculus with 6 samples.

Results

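The enzymes described here add or remove methyl and acetyl groups on histones and methyl groups on DNA, and their mRNA levels were measured in 6 YUMM3.3 tumors. The members were all protein-coding genes of the deposited count table whose symbol begins with Kdm, Kmt, Hdac, Sirt, Kat or Prmt and a number, or with Setd, Dnmt, Ehmt, Suv39h, Uhrf, Ezh1, Ezh2, Suz12, Eed, Tet1 to Tet3, Nsd1 to Nsd3 or Dot1l. This rule took 94 of 40166 genes, and it used symbols only and no measured value. YUMM3.3 is 1 BRAF-mutant mouse melanoma cell line, which was injected under the skin of the lower back of C57BL/6 mice. The 3 vehicle tumors (replicates 7, 8 and 9) came from mice given water by oral gavage 5 days a week, and the 3 RGS tumors (replicates 10, 11 and 12) from mice given rigosertib (RGS) at 300 mg/kg on the same schedule. RGS is a small molecule that keeps RAS from binding its effectors. All 6 tumors were taken after 17 days of treatment. The paper describes bulk RNA of whole tumors, with tumor, stromal and immune cells. The study's mice were 8 to 10 weeks old at injection, and the sex of these 6 mice is not stated in the sample labels, nor is it stated there that each tumor came from a separate mouse. P-values therefore measure the spread between these tumors.

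Histone methyltransferases and acetyltransferases (writers) place marks on histone tails, and demethylases and deacetylases (erasers) take them off. Methylation of lysine 4 of histone H3 (H3K4) marks active promoters and enhancers, methylation of H3K9 and H3K27 marks silent chromatin, and methylation of H3K36 and H3K79 lies over transcribed genes. In DNA, Dnmt1 copies methylation after replication with the help of Uhrf1, Dnmt3a and Dnmt3b set new methylation, and the Tet enzymes oxidize it. Several of these enzymes, among them EZH2, are overexpressed or mutated in human melanoma.

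Assigned counts summed to between 13837932 and 32555494 per tumor, and each of the 3 vehicle totals exceeded each of the 3 RGS totals, so that a depth effect and a treatment effect cannot be told apart. Counts of mitochondrial genes made up 2.13 to 3.20% of the vehicle libraries and 5.60 to 8.22% of the RGS libraries, and those of ribosomal protein genes 5.16 to 9.41% and 2.85 to 3.35%. The labelled tissue was checked against marker lists. Of 7 melanocyte lineage genes, Tyr, Dct and Mlana had 0 counts in all 6 tumors. Mitf was measured in every tumor, at 7.45, 4.28 and 4.64 CPM in the vehicle tumors and 10.46, 7.31 and 4.53 CPM in the RGS tumors (CPM, the depth-normalised count, taken on the library scaled with edgeR's TMM factors). The 7 genes summed to 4.94 to 7.68 CPM with vehicle and 4.53 to 10.46 CPM with RGS, most of it Mitf. Only 2 of the 7 had a group median of 5 or more counts in either group. Of 16 leukocyte markers, 7 had 0 counts in every tumor, among them Ptprc, Cd3e, Cd8a, Ms4a1, Adgre1 and Itgax. The paper describes these tumors as holding immune cells, and why such genes had no counts was not tested. The summed level of the leukocyte list was 66.2 to 71.0 CPM with vehicle and 84.9 to 107 CPM with RGS, most of it Cd68. Summed endothelial markers ran from 2.49 to 4.10 CPM with vehicle and from 6.33 to 13.8 CPM with RGS, with Emcn at 0 in every tumor. Of 4 tested endothelial genes, 1 was called higher and none lower (25%, against 16.3% of all tested genes called higher). Their log2 fold changes ran both ways, from -1.88 to 3.47. Summed fibroblast markers ran from 489.8 to 684 CPM with vehicle and from 312 to 342 CPM with RGS, with Lum at 0 in every tumor. Of 7 tested fibroblast genes, 5 were lower with RGS and 1 was higher (71.4 and 14.3%, against 16.5 and 16.3% of all tested genes). A count of 0 allows up to 3 counts, or 0.0856 to 0.226 CPM depending on the library, and such floors cover counting error only. The part of these differences in the results was not tested.

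RGS tumors were compared with vehicle tumors to find which of these enzymes changed. Of the 94 members, 89 passed the filter on low counts (a group median of 5 or more in either group). At an adjusted p under 0.05 (edgeR's quasi-likelihood test, Benjamini-Hochberg over 15355 genes), 12 members were higher with RGS and 11 were lower. These are 13.5 and 12.4% of the tested members, while 16.3% of all tested genes were called higher and 16.5% lower, so the shares of members were near, and a little under, those of all tested genes. Every RGS tumor lay above every vehicle tumor for 18 members (20.2%, against 21.7% of all tested genes) and below for 17 (19.1%, against 24.0%). The median log2 fold change was 0.069 over the members and -0.048 over all tested genes. Writers and erasers were each split evenly, with 4 higher and 4 lower among 50 tested writers and 7 higher and 7 lower among 37 tested erasers. The count of members depended on single tumors, as did that of all tested genes. Without vehicle replicate 9 only 7 members were higher, and without vehicle replicate 8 it was 8 higher and 7 lower. Without RGS replicate 10 or RGS replicate 11, 8 were higher. Calls over all tested genes, 2503 higher and 2533 lower with all 6 tumors, were 1776 and 1717 without vehicle replicate 8. They were 1995 and 2012 without vehicle replicate 9, with 2055 and 2004 higher without RGS replicates 10 and 11. Library size only as the scaling moved the median of all tested genes by -0.14. It gave 6 members higher and 16 lower, beside 1870 and 3152 of all tested genes. With limma voom and quality weights there were 23 higher and 17 lower, beside 3407 and 3408 of all tested genes. In bulk tumors, fewer cells of a type and less RNA per cell cannot be told apart.

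**Figure D1:**
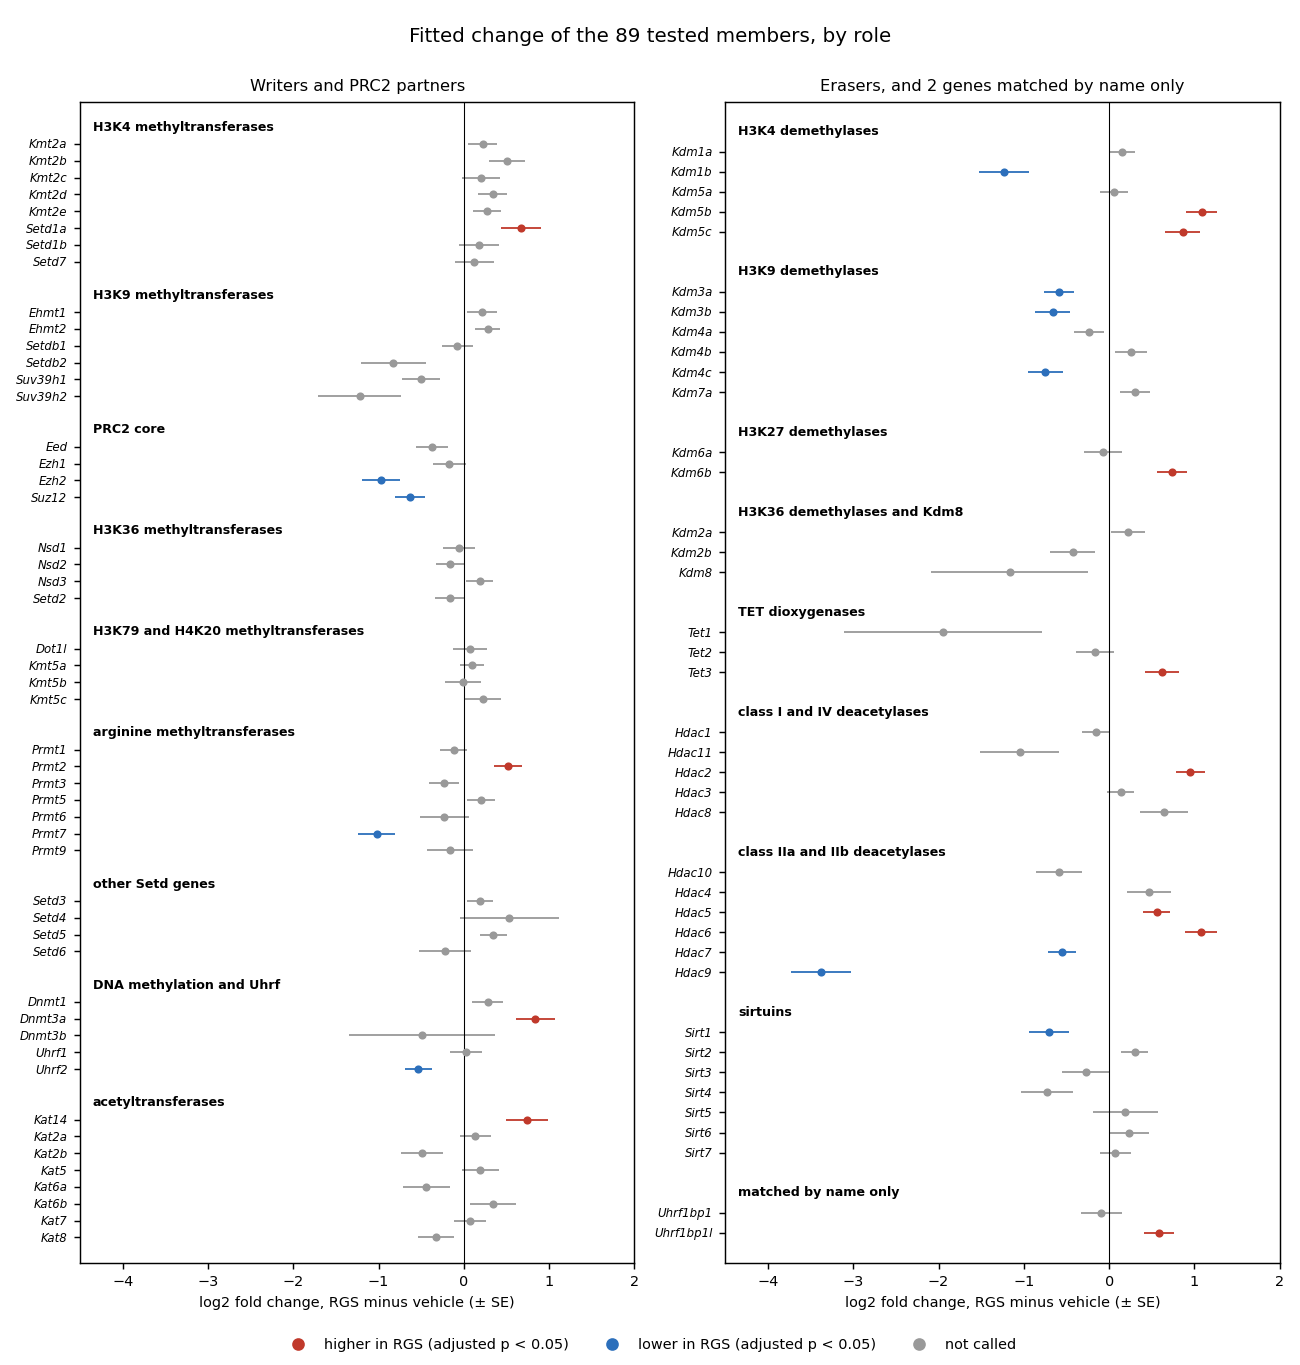
Fitted log2 fold change (RGS minus vehicle, x axis, bars ± SE) of the 89 tested members, grouped by role, with members called higher in red, lower in blue and not called in grey. Writers mostly sit near 0, and Hdac9 lies farthest out at -3.38.

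**Figure D2:**
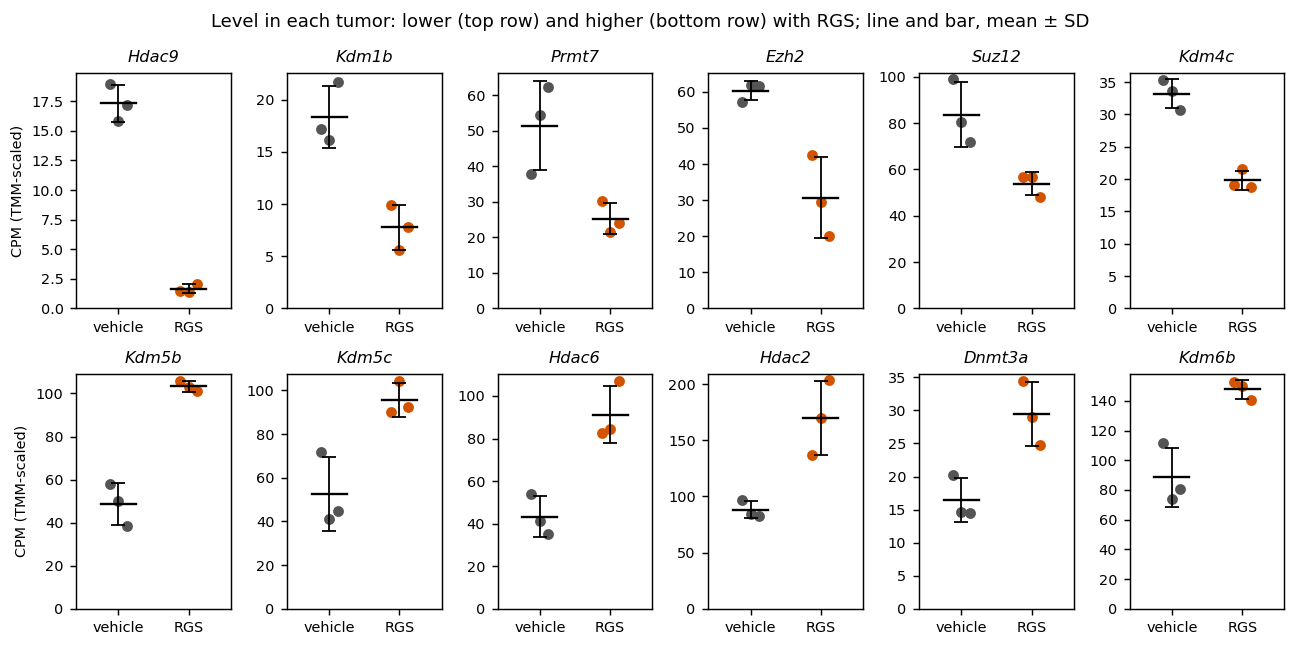
Level in CPM (y axis, from 0) of 12 called members in each of 3 vehicle and 3 RGS tumors, with the mean and SD. The top row holds 6 members that were lower with RGS and the bottom row 6 that were higher, and in none of the 12 panels do the groups overlap.

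The Polycomb repressive complex 2 (PRC2), which methylates H3K27, had 2 of its 4 core genes lower with RGS, and none higher. Of all tested genes, 16.5% were called lower and 16.3% higher. Ezh2 (ENSMUSG00000029687.16, chr6:47530139-47595341), the catalytic subunit of dividing cells, stood at 57.2, 62.0 and 61.7 CPM in the vehicle tumors and 42.4, 29.4 and 20.1 CPM in the RGS tumors. Every RGS tumor lay below every vehicle tumor, and the fitted log2 fold change was -0.97 ± 0.23 (SE) with an adjusted p of 0.00261, or 1.96-fold lower. Suz12 (ENSMUSG00000017548.15, chr11:79993106-80034123), a scaffold subunit that the complex needs, stood at 99.0, 80.4 and 71.8 CPM in the vehicle tumors and 56.9, 56.8 and 48.0 CPM in the RGS tumors. These groups did not overlap either, and the log2 fold change was -0.64 ± 0.18 (SE) with an adjusted p of 0.00914. Eed, the subunit that reads methylated H3K27, stood at 48.6, 60.05 and 53.0 CPM in the vehicle tumors and 39.5, 36.3 and 49.0 CPM in the RGS tumors, and its log2 fold change of -0.37 ± 0.18 (SE) with an adjusted p of 0.131 missed the threshold (95% interval -0.76 to 0.015). Eed was called lower with library size only as the scaling (adjusted p = 0.0415) and with voom (0.0132). Ezh1, the catalytic subunit that resting cells keep, stood at 42.4, 40.8 and 42.3 CPM in the vehicle tumors and 40.6, 41.8 and 28.9 CPM in the RGS tumors. It differed by -0.17 ± 0.19 (SE) with an adjusted p of 0.531, with a 95% interval of -0.58 to 0.23, and its groups overlapped. Genes of cell division were often lower as well, on a list set with earlier results of these data known. Of 20 listed genes, 15 were lower with RGS and none was higher. These are 75% of the list, against 16.5% of all tested genes called lower. DESeq2 called 15 lower and none higher, and voom 16 and none. The summed level of the 20 genes was 1443 to 1478 CPM with vehicle and 711 to 793 CPM with RGS. The part of that difference in the lower Ezh2 and Suz12 was not tested.

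The promoter windows of the 4 core genes are shown because 2 of these genes were called and 2 were not, and because EZH2 and cell division genes are known targets of E2F factors. They are the RefSeq windows of 250 bases before to 50 after the transcription start in GRCm38.p6, 5′ to 3′ on the gene's strand, with a match to 1 of the E2F-type octamers TTTGGCGC, TTTCCCGC, TTTCGCGC or TTTGCCGC in capitals. Ezh2 lies at chr6:47594981-47595280, minus strand, Suz12 at chr11:79992856-79993155, plus strand, Eed at chr7:89980927-89981226, minus strand and Ezh1 at chr11:101226414-101226713, minus strand.
Ezh2: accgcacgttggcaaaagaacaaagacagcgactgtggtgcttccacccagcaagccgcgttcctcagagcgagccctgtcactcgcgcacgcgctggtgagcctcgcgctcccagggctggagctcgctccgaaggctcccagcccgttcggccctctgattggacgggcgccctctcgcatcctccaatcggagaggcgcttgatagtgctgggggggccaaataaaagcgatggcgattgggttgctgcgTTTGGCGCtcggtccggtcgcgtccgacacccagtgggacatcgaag
Suz12: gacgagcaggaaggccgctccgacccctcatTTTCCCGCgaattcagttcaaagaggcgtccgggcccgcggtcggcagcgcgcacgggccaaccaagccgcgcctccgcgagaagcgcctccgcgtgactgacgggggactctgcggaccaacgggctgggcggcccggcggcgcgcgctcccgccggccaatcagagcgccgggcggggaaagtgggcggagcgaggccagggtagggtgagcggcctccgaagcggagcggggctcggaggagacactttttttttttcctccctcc
Eed: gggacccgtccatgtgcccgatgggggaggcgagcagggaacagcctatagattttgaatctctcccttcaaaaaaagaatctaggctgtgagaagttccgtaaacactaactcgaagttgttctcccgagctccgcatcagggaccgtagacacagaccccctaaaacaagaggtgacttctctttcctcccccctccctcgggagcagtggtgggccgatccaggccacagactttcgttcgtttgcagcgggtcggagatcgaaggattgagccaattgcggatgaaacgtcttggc
Ezh1: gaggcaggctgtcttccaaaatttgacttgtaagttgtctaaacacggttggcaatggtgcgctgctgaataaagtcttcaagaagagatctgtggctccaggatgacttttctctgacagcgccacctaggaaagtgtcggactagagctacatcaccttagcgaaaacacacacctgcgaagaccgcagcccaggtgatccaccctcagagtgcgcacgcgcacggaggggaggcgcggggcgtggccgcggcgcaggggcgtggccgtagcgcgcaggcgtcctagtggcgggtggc
The Ezh2 window held TTTGGCGC starting 3 bases after the first transcribed base, and the Suz12 window held TTTCCCGC starting 219 bases before the start. The Eed and Ezh1 windows held none of the 4 octamers on either strand. CpG pairs numbered 31 in the Ezh2 window, 41 in Suz12, 17 in Eed and 23 in Ezh1, against a median of 7 over all 32851 windows. A match is a description of letters and not evidence of binding.

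Over all promoters, 704 of 27025 genes (2.6%) had an octamer in a window on either strand. Of the 77 members with a window, 8 did (10.4%): Ezh2, Suz12, Suv39h1, Kmt5c, Dnmt1, Uhrf1, Kat2a and Sirt4. Among members called lower, 2 of 10 had an octamer, among members called higher 0 of 11, and among the cell division genes 5 of 16. Every octamer searched for holds a CpG pair. The median number of CpG pairs per window was 22 for the members and 25 for the cell division genes, against 7 over all windows. Whether the larger shares with an octamer go beyond this difference in CpG was not tested. The other 6 of the 8 members were not called. Uhrf1, which recruits Dnmt1 to newly copied DNA, is 1 of them, and its window (chr17:56304063-56304362, plus strand) is given for comparison with Ezh2.
Uhrf1: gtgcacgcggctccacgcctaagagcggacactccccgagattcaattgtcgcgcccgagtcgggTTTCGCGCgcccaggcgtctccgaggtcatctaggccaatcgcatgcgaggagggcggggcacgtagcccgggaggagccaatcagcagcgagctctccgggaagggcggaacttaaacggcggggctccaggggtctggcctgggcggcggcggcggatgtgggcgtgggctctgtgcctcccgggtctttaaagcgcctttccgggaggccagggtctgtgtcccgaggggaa
Its octamer TTTCGCGC starts 185 bases before the start, and Uhrf1 stood at 43.3, 38.2 and 32.3 CPM in the vehicle tumors and 36.3, 38.8 and 40.8 CPM in the RGS tumors. The log2 fold change was 0.026 ± 0.19 (SE) with an adjusted p of 0.931, with a 95% interval of -0.37 to 0.42, and the groups overlapped.

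All 8 genes grouped by name as H3K4 methyltransferases had a positive fitted change, while the median over all tested genes was -0.048. In other fits Setd7 was negative: with library size only as the scaling (-0.029), without vehicle replicate 9 (-0.012) and without RGS replicate 12 (-0.097). With voom 5 of the 8 genes were called higher, beside 3407 of all 15355 tested genes. With edgeR 1 passed the test (12.5%, against 16.3% of all tested genes called higher). That gene was Setd1a (ENSMUSG00000042308.14, chr7:127776670-127800122), the catalytic subunit of a complex that trimethylates H3K4 at promoters, at 20.2, 13.6 and 15.5 CPM in the vehicle tumors and 23.9, 30.6 and 24.3 CPM in the RGS tumors. Its log2 fold change was 0.67 ± 0.24 (SE) with an adjusted p of 0.0348, and the RGS tumors all lay above the vehicle tumors. For Setd1a the call was lost with library size only as the scaling (adjusted p = 0.102), without vehicle replicate 8 (adjusted p = 0.163), without vehicle replicate 9 (adjusted p = 0.0898), without RGS replicate 11 (adjusted p = 0.134) and without RGS replicate 12 (adjusted p = 0.0502). Of its exon bases, 51.8% are shared with the same-strand gene model Gm49388, which had 0 counts, so its counts are uncertain. Kmt2a, the fusion partner gene of mixed-lineage leukemia, stood at 119, 85.4 and 95.7 CPM in the vehicle tumors and 113, 131 and 105 CPM in the RGS tumors, a log2 fold change of 0.22 ± 0.17 (SE) with an adjusted p of 0.341. Kmt2d, an enhancer H3K4 methyltransferase, stood at 150.5, 118 and 112 CPM in the vehicle tumors and 147, 188 and 147 CPM in the RGS tumors, a log2 fold change of 0.34 ± 0.17 (SE) with an adjusted p of 0.130. Neither passed the threshold, and both pairs of groups overlapped. Without vehicle replicate 7 the adjusted p of Kmt2d was 0.0135. The other 5 had log2 fold changes of 0.51 (Kmt2b), 0.21 (Kmt2c), 0.27 (Kmt2e), 0.18 (Setd1b) and 0.12 (Setd7).

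None of the 6 H3K9 methyltransferases, which set up heterochromatin, passed edgeR's test. By unadjusted p under 0.05 it was 3 of 6, DESeq2 called 0 and voom 3. Suv39h2, a trimethylase of heterochromatin, came nearest with 8.22, 8.84 and 7.14 CPM in the vehicle tumors and 3.17, 1.21 and 5.93 CPM in the RGS tumors. Its RGS tumors all lay below its vehicle tumors, with RGS replicate 11 lowest, and the log2 fold change was -1.22 ± 0.48 (SE) with an adjusted p of 0.0593 (95% interval -2.23 to -0.21). The lowest tumor held 16 counts of Suv39h2, and the adjusted p was 0.00805 without RGS replicate 12 (log2 fold change -1.87) and 0.0580 to 0.174 without each other tumor in turn, with -0.84 without RGS replicate 11. It was called lower with library size only as the scaling (adjusted p = 0.0326) and with voom (0.00978). An exon stretch of 8.10% of the gene is shared with Dclre1c on the opposite strand, and the strand setting of the counting is not given in the sources used here. Suv39h1, its paralog, had -0.50 (adjusted p = 0.0907) and Setdb2 -0.83 (adjusted p = 0.105), also with no overlap between groups for either. Ehmt2, which forms the dimethylase G9a/GLP with Ehmt1, had 0.28 (adjusted p = 0.155) with every RGS tumor above every vehicle tumor. Ehmt1 differed by 0.21 and Setdb1 by -0.075 on the log2 scale.

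The writers of H3K36, H3K79 and H4K20 methylation were near 0, and none of these 8 genes was called by edgeR, DESeq2 or voom or had an unadjusted p under 0.05. Setd2, the trimethylase of H3K36 in transcribed genes, stood at 96.5, 72.1 and 65.9 CPM in the vehicle tumors and 73.1, 72.6 and 63.4 CPM in the RGS tumors, a log2 fold change of -0.17 ± 0.18 (SE) with an adjusted p of 0.512. Nsd1, an H3K36 dimethylase, stood at 55.0, 41.2 and 47.4 CPM in the vehicle tumors and 41.7, 53.5 and 42.8 CPM in the RGS tumors, a log2 fold change of -0.060 ± 0.19 (SE) with an adjusted p of 0.836. Nsd2 stood at 119, 96.6 and 89.9 CPM in the vehicle tumors and 83.2, 96.4 and 93.4 CPM in the RGS tumors, a log2 fold change of -0.16 ± 0.16 (SE) with an adjusted p of 0.484. The groups of all 3 overlapped. Nsd3 stood at 99.3, 79.5 and 89.4 CPM in the vehicle tumors and 114, 98.1 and 93.1 CPM in the RGS tumors, a log2 fold change of 0.19 ± 0.16 (SE) with an adjusted p of 0.412, and Dot1l, the only known H3K79 methyltransferase, at 65.9, 68.1 and 78.6 CPM in the vehicle tumors and 78.8, 94.1 and 50.2 CPM in the RGS tumors, a log2 fold change of 0.069 ± 0.20 (SE) with an adjusted p of 0.826. The 95% intervals of these 5 genes were -0.54 to 0.21 (Setd2), -0.45 to 0.33 (Nsd1), -0.51 to 0.18 (Nsd2), -0.15 to 0.53 (Nsd3) and -0.35 to 0.49 (Dot1l) on the log2 scale. Kmt5c, an H4K20 trimethylase, stood at 22.4, 24.4 and 23.9 CPM in the vehicle tumors and 26.2, 25.8 and 30.7 CPM in the RGS tumors, and every RGS tumor lay above every vehicle tumor although its log2 fold change of 0.22 ± 0.21 (SE) with an adjusted p of 0.436 was small. Kmt5a differed by 0.096 and Kmt5b by -0.013. Of the 4 other Setd genes, none was called and 1 had an unadjusted p under 0.05 (0 called by DESeq2, 1 by voom). Setd5 stood at 125, 111 and 96.3 CPM in the vehicle tumors and 145, 142 and 135 CPM in the RGS tumors, with every RGS tumor higher and a log2 fold change of 0.35 ± 0.16 (SE) with an adjusted p of 0.0965. Setd4 (0.54), Setd3 (0.19), which methylates actin, and Setd6 (-0.22) were not called.

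Of 7 tested arginine methyltransferases, 1 was lower and 1 higher (14.3% each way, against 16.5 and 16.3% of all tested genes). Prmt7 (ENSMUSG00000060098.11, chr8:106210936-106252794), which monomethylates arginine, stood at 37.7, 54.3 and 62.4 CPM in the vehicle tumors and 30.3, 21.5 and 24.2 CPM in the RGS tumors. All RGS tumors lay below all vehicle tumors, and the log2 fold change was -1.02 ± 0.22 (SE) with an adjusted p of 0.00131, 2.03-fold lower. Prmt2, a weak arginine methyltransferase and nuclear receptor coactivator, stood at 58.7, 72.2 and 61.1 CPM in the vehicle tumors and 93.6, 88.4 and 93.4 CPM in the RGS tumors, a log2 fold change of 0.52 ± 0.16 (SE) with an adjusted p of 0.0187. For Prmt2 the call was lost with library size only as the scaling (adjusted p = 0.0919), without vehicle replicate 9 (adjusted p = 0.0595), without RGS replicate 10 (adjusted p = 0.0598), without RGS replicate 11 (adjusted p = 0.0520) and without RGS replicate 12 (adjusted p = 0.0681). Prmt1, which makes most asymmetric dimethylarginine, differed by -0.12, and Prmt5, which makes symmetric dimethylarginine, by 0.20. Prmt3 (-0.23), Prmt6 (-0.23) and Prmt9 (-0.16) were not called, and Prmt8 had 0 counts in all tumors.

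Of 8 acetyltransferases, Kat14, a subunit of the ATAC complex, was called higher (12.5%, against 16.3% of all tested genes). It stood at 25.4, 22.1 and 13.1 CPM in the vehicle tumors and 40.6, 30.2 and 30.8 CPM in the RGS tumors, a log2 fold change of 0.74 ± 0.25 (SE) with an adjusted p of 0.0263, with no overlap between groups. For Kat14 the call was lost with library size only as the scaling (adjusted p = 0.0814), without vehicle replicate 9 (adjusted p = 0.134) and without RGS replicate 10 (adjusted p = 0.123). Of its exon bases, 14.7% are shared with Pet117, which was not analysed here. Kat2a (0.13) and Kat2b (-0.49), Kat5 (0.19), Kat6a (-0.44), Kat6b (0.34), Kat7 (0.075) and Kat8 (-0.33) were not called.

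Of 5 tested genes of the Dnmt and Uhrf families, Dnmt3a was higher and Uhrf2 lower. These are 20% each way, near the 16.3 and 16.5% of all tested genes. Dnmt3a (ENSMUSG00000020661.15, chr12:3806007-3914443) stood at 20.3, 14.6 and 14.5 CPM in the vehicle tumors and 34.5, 29.1 and 24.8 CPM in the RGS tumors. Every RGS tumor was above every vehicle tumor, and the log2 fold change was 0.84 ± 0.23 (SE) with an adjusted p of 0.00946, 1.79-fold higher. Dnmt1, the enzyme for copying, stood at 133, 92.0 and 83.5 CPM in the vehicle tumors and 107, 134 and 133 CPM in the RGS tumors, and its log2 fold change was 0.28 ± 0.18 (SE) with an adjusted p of 0.260 (95% interval -0.10 to 0.66). Vehicle replicate 7 lay within the range of the RGS tumors, and without it the adjusted p was 0.0124, while without each other tumor in turn Dnmt1 was not called. With voom its adjusted p was 0.0134. Dnmt3b stood at 1.03, 2.07 and 2.32 CPM in the vehicle tumors and 1.75, 1.36 and 0.734 CPM in the RGS tumors, a low level, and its log2 fold change was -0.49 ± 0.85 (SE) with an adjusted p of 0.704. Uhrf2, a relative of Uhrf1 that binds hydroxymethylated DNA, was lower, at 134, 138 and 152 CPM in the vehicle tumors and 86.9, 112 and 94.8 CPM in the RGS tumors, a log2 fold change of -0.53 ± 0.16 (SE) with an adjusted p of 0.0143. For Uhrf2 the call was lost without vehicle replicate 8 (adjusted p = 0.0578), without vehicle replicate 9 (adjusted p = 0.0524) and without RGS replicate 10 (adjusted p = 0.0723). Dnmt3c had 0 counts in every tumor and Dnmt3l was too low to test.

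Of the 3 TET dioxygenases, which oxidize methylated cytosine, Tet3 was called higher (33.3%, against 16.3% of all tested genes). It stood at 25.3, 19.96 and 23.9 CPM in the vehicle tumors and 38.4, 35.0 and 32.6 CPM in the RGS tumors, with no overlap and a log2 fold change of 0.62 ± 0.20 (SE) with an adjusted p of 0.0251. For Tet3 the call was lost with library size only as the scaling (adjusted p = 0.0895), without vehicle replicate 8 (adjusted p = 0.140), without vehicle replicate 9 (adjusted p = 0.0511), without RGS replicate 10 (adjusted p = 0.0796) and without RGS replicate 11 (adjusted p = 0.0609). Tet2 stood at 24.6, 21.1 and 29.3 CPM in the vehicle tumors and 26.0, 20.6 and 20.01 CPM in the RGS tumors, a log2 fold change of -0.17 ± 0.22 (SE) with an adjusted p of 0.605. Tet1 was low, at 0.999, 1.21 and 2.19 CPM in the vehicle tumors and 0.189, 0.0753 and 0.857 CPM in the RGS tumors, and its log2 fold change of -1.95 ± 1.16 (SE) with an adjusted p of 0.212 had a 95% interval of -4.38 to 0.48, although every RGS tumor lay below every vehicle tumor.

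The H3K4 demethylases changed in both directions: 2 of the 5 tested genes were higher and 1 was lower. Of all tested genes, 16.3% were higher and 16.5% lower. Kdm5b (ENSMUSG00000042207.17, chr1:134560171-134635285; JARID1B), a demethylase of trimethylated H3K4 that marks slow-cycling cells in human melanoma, stood at 57.9, 50.03 and 38.2 CPM in the vehicle tumors and 106, 103 and 101 CPM in the RGS tumors. The RGS tumors lay close together and above every vehicle tumor, and the log2 fold change was 1.08 ± 0.18 (SE) with an adjusted p of 0.000123, 2.12-fold higher. Kdm5c, the X-linked paralog, stood at 72.0, 40.9 and 44.8 CPM in the vehicle tumors and 90.0, 104 and 92.3 CPM in the RGS tumors. Its vehicle replicate 7 was the highest vehicle tumor, still below all RGS tumors, and the log2 fold change was 0.86 ± 0.20 (SE) with an adjusted p of 0.00281. Kdm5d, the Y-linked copy, had 0 counts in every tumor, as had the Y-linked genes Ddx3y and Uty. Kdm5a stood at 68.4, 67.3 and 67.2 CPM in the vehicle tumors and 76.3, 72.2 and 62.7 CPM in the RGS tumors, a log2 fold change of 0.058 ± 0.16 (SE) with an adjusted p of 0.819. Kdm1b (ENSMUSG00000038080.17, chr13:47043499-47085279; LSD2), a flavin-dependent demethylase of H3K4, stood at 17.2, 16.1 and 21.7 CPM in the vehicle tumors and 9.94, 5.58 and 7.77 CPM in the RGS tumors. All RGS tumors lay below all vehicle tumors, and the log2 fold change was -1.23 ± 0.29 (SE) with an adjusted p of 0.00311, 2.35-fold lower. Of its exon bases, 9.19% are shared with Dek on the opposite strand, which had 943 to 4818 counts against a lowest Kdm1b count of 74. Kdm1a (LSD1), which acts in repressor complexes with Rcor proteins, stood at 118, 116 and 133 CPM in the vehicle tumors and 136, 135 and 135 CPM in the RGS tumors, with every RGS tumor higher and a log2 fold change of 0.15 ± 0.15 (SE) with an adjusted p of 0.475 that missed the threshold.

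The windows of Kdm5b, which rose, and of Hdac9, which fell the most of all members, are shown as examples of promoters without the octamers. Kdm5b lies at chr1:134559928-134560227, plus strand, and Hdac9 has RefSeq windows at chr12:34917046-34917345, minus strand and chr12:34528840-34529139, minus strand.
Kdm5b: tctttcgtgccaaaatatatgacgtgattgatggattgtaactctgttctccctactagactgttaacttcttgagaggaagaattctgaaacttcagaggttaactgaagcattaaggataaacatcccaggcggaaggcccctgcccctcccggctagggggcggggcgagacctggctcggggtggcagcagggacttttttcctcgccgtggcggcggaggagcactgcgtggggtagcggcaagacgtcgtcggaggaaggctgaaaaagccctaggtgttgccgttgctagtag
Hdac9, first window: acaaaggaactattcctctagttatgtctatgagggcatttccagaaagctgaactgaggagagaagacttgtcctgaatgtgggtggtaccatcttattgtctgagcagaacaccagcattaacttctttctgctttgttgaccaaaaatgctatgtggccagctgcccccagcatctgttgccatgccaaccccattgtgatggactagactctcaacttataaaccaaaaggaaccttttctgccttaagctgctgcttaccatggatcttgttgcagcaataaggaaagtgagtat
Hdac9, second window: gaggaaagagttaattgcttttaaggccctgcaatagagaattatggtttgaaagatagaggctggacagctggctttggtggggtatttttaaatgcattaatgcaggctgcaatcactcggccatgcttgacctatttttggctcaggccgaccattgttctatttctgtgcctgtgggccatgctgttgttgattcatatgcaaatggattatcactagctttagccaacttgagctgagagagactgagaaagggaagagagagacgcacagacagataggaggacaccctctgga
The Kdm5b window had 17 CpG pairs, while the Hdac9 windows had 0 and 3, against a median of 22 over the members' windows.

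Of 6 tested H3K9 demethylases, 3 were lower and none was higher with edgeR or DESeq2, while voom called 3 lower and 2 higher. With edgeR, 16.5% of all tested genes were lower and 16.3% higher. Kdm4c, which acts on trimethylated H3K9, stood at 35.3, 33.6 and 30.7 CPM in the vehicle tumors and 19.0, 21.5 and 18.8 CPM in the RGS tumors, with no overlap and a log2 fold change of -0.75 ± 0.20 (SE) with an adjusted p of 0.00861. For Kdm4c the call was lost without vehicle replicate 8 (adjusted p = 0.0530). Kdm3a and Kdm3b remove mono- and dimethyl groups from H3K9. Kdm3a stood at 96.0, 110.0 and 102 CPM in the vehicle tumors and 77.0, 76.3 and 51.5 CPM in the RGS tumors, a log2 fold change of -0.59 ± 0.18 (SE) with an adjusted p of 0.0164, and its call was lost without vehicle replicate 8 (adjusted p = 0.0919) and without RGS replicate 12 (adjusted p = 0.0876). Kdm3b stood at 94.5, 63.0 and 81.6 CPM in the vehicle tumors and 64.7, 46.3 and 39.7 CPM in the RGS tumors, with overlapping groups and a log2 fold change of -0.66 ± 0.20 (SE) with an adjusted p of 0.0173, and its call was lost without RGS replicate 11 (adjusted p = 0.0639) and without RGS replicate 12 (adjusted p = 0.0862). Of the exon bases of Kdm3b, 24.6% are shared with Gm26538 on the opposite strand, which had 0 counts. Kdm4a (-0.24), Kdm4b (0.25) and Kdm7a (0.30) were not called, and Kdm4d was too low to test.

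Of the 2 H3K27 demethylases, which undo the mark of PRC2, Kdm6b rose (50%, against 16.3% of all tested genes called higher). Kdm6b (ENSMUSG00000018476.7, chr11:69398508-69413675; JMJD3), an inducible demethylase, stood at 111, 73.8 and 80.7 CPM in the vehicle tumors and 152, 150.3 and 141 CPM in the RGS tumors, with every RGS tumor above every vehicle tumor and a log2 fold change of 0.74 ± 0.17 (SE) with an adjusted p of 0.00275, 1.67-fold higher. Kdm6a (UTX), its X-linked paralog, stood at 29.3, 26.5 and 27.9 CPM in the vehicle tumors and 29.2, 30.9 and 19.5 CPM in the RGS tumors, and its groups overlapped with a log2 fold change of -0.072 ± 0.22 (SE) with an adjusted p of 0.833 (95% interval -0.53 to 0.39). None of the 3 genes of the H3K36 demethylase group was called by edgeR, DESeq2 or voom, and 0 had an unadjusted p under 0.05. Kdm2b had the smallest adjusted p of these, at 24.5, 20.7 and 21.2 CPM in the vehicle tumors and 22.4, 16.0 and 10.9 CPM in the RGS tumors, a log2 fold change of -0.43 ± 0.26 (SE) with an adjusted p of 0.229. Kdm2a differed by 0.22 and Kdm8 by -1.17.

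Deacetylases changed in both directions, with 3 higher and 3 lower of 18 tested (16.7% each way, near the 16.3 and 16.5% of all tested genes). Hdac9 (ENSMUSG00000004698.10, chr12:34047580-34917095), a class IIa deacetylase that works mainly as a corepressor of MEF2 factors, had the largest fitted change of all members. It stood at 19.0, 15.8 and 17.2 CPM in the vehicle tumors and 1.47, 1.43 and 2.08 CPM in the RGS tumors, a group mean of 17.3 ± 1.59 (SD, n = 3) CPM for vehicle against 1.66 ± 0.365 (SD, n = 3) CPM for RGS. The log2 fold change was -3.38 ± 0.35 (SE) with an adjusted p of 8.37e-07, 10.4-fold lower, and the adjusted p was at most 3.35e-05 when any 1 tumor was left out. Hdac7, another class IIa gene, was lower as well, at 198, 155 and 149 CPM in the vehicle tumors and 117, 122 and 103 CPM in the RGS tumors, a log2 fold change of -0.56 ± 0.16 (SE) with an adjusted p of 0.0130. Hdac5, of the same class, was higher, at 191, 141 and 141 CPM in the vehicle tumors and 241, 242 and 213 CPM in the RGS tumors, a log2 fold change of 0.56 ± 0.16 (SE) with an adjusted p of 0.0129. The 3 class IIa genes that were called thus did not move one way, and Hdac4 was not called at 0.46. For Hdac7 the call was lost without RGS replicate 12 (adjusted p = 0.0564), and for Hdac5 with library size only as the scaling (adjusted p = 0.0731), without vehicle replicate 8 (adjusted p = 0.0746) and without RGS replicate 11 (adjusted p = 0.0650). Hdac6 (ENSMUSG00000031161.15, chrX:7930120-7947889), a cytoplasmic deacetylase of tubulin, stood at 53.8, 41.02 and 35.0 CPM in the vehicle tumors and 82.6, 84.4 and 107 CPM in the RGS tumors. The log2 fold change was 1.08 ± 0.19 (SE) with an adjusted p of 0.000252, 2.11-fold higher, with no overlap between groups. Hdac10 differed by -0.59.

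In class I, Hdac2 (ENSMUSG00000019777.16, chr10:36974544-37001889), a catalytic subunit of the SIN3, NuRD and CoREST complexes, stood at 96.6, 84.3 and 82.9 CPM in the vehicle tumors and 137, 169.7 and 203 CPM in the RGS tumors. All RGS tumors lay above all vehicle tumors, and the log2 fold change was 0.95 ± 0.17 (SE) with an adjusted p of 0.000278, 1.93-fold higher. Its partner paralog Hdac1 stood at 93.1, 104 and 96.0 CPM in the vehicle tumors and 91.8, 75.9 and 95.1 CPM in the RGS tumors, a log2 fold change of -0.16 ± 0.16 (SE) with an adjusted p of 0.494 (95% interval -0.49 to 0.18). Hdac3, a class I deacetylase of corepressor complexes, stood at 83.3, 82.5 and 88.0 CPM in the vehicle tumors and 102, 81.6 and 95.1 CPM in the RGS tumors, a log2 fold change of 0.13 ± 0.16 (SE) with an adjusted p of 0.562 (95% interval -0.20 to 0.47). The groups of Hdac1 and of Hdac3 overlapped. Hdac8 differed by 0.65 and Hdac11, the class IV gene, by -1.05 (adjusted p = 0.0916).

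Of the 7 sirtuins, NAD-dependent deacylases, Sirt1 was called lower (14.3%, against 16.5% of all tested genes). It stood at 28.5, 24.8 and 23.0 CPM in the vehicle tumors and 19.0, 14.7 and 13.1 CPM in the RGS tumors, with every RGS tumor lower and a log2 fold change of -0.70 ± 0.23 (SE) with an adjusted p of 0.0277. For Sirt1 the call was lost without vehicle replicate 7 (adjusted p = 0.0766), without vehicle replicate 8 (adjusted p = 0.0928), without RGS replicate 11 (adjusted p = 0.0677) and without RGS replicate 12 (adjusted p = 0.0822). The others, Sirt2 (0.30), Sirt3 (-0.27), Sirt4 (-0.73), Sirt5 (0.19), Sirt6 (0.23) and Sirt7 (0.069), were not called. The rule also took in Uhrf1bp1 (-0.094) and Uhrf1bp1l, which are named for binding UHRF1 and are not chromatin enzymes. Uhrf1bp1l was called higher, at 145, 101 and 91.4 CPM in the vehicle tumors and 174, 160.0 and 169.5 CPM in the RGS tumors, a log2 fold change of 0.58 ± 0.18 (SE) with an adjusted p of 0.0160. For Uhrf1bp1l the call was lost with library size only as the scaling (adjusted p = 0.0807), without vehicle replicate 8 (adjusted p = 0.0697), without vehicle replicate 9 (adjusted p = 0.0687), without RGS replicate 10 (adjusted p = 0.0577) and without RGS replicate 12 (adjusted p = 0.0529).

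Levels were compared between genes per kilobase of exon length. In the vehicle tumors, the highest members were Prmt1 at 68.2 ± 9.40 CPM per kb, Kmt5a at 44.5 ± 2.29, Ehmt2 at 35.7 ± 3.32 and Hdac1 at 28.3 ± 1.61 (SD, n = 3). With RGS these stood at 62.7 ± 8.59, 47.6 ± 1.23, 43.4 ± 1.52 and 25.4 ± 2.99 CPM per kb, and none of the 4 was called. Hdac2 went from 19.7 ± 1.68 to 38.0 ± 7.42 CPM per kb. The lowest tested members with vehicle were Tet1 at 0.0950 ± 0.0412 and Dnmt3b at 0.354 ± 0.134 CPM per kb. The abundant members were thus not those with the largest fitted changes, and Hdac9 stood at 1.181 ± 0.108 CPM per kb with vehicle and 0.113 ± 0.0249 with RGS.

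Ratios of related enzymes within a tumor depend little on how libraries are scaled. The log2 ratio of Ezh2 to Ezh1 (CPM per kb) was 0.58, 0.75 and 0.70 in the vehicle tumors and 0.22, -0.35 and -0.36 in the RGS tumors. It averaged 0.68 ± 0.086 with vehicle and -0.16 ± 0.33 with RGS (SD, n = 3 each), so Ezh2 was the more abundant of the pair in every vehicle tumor and the less abundant in 2 of 3 RGS tumors. The ratio of Hdac1 to Hdac2 was 0.32, 0.68 and 0.59 in the vehicle tumors and -0.20, -0.78 and -0.71 in the RGS tumors, and it changed sign between the groups. It averaged 0.53 ± 0.18 with vehicle and -0.56 ± 0.32 with RGS (SD, n = 3 each). The ratio of Kdm6a to Kdm6b averaged -1.90 ± 0.24 with vehicle and -2.75 ± 0.29 with RGS (SD, n = 3 each), and that of Dnmt1 to Dnmt3a 3.77 ± 0.10 with vehicle and 3.24 ± 0.40 with RGS (SD, n = 3 each). The differences, RGS minus vehicle, were -0.84 (Ezh2/Ezh1), -1.09 (Hdac1/Hdac2), -0.85 (Kdm6a/Kdm6b) and -0.52 (Dnmt1/Dnmt3a) on the log2 scale, and in each the groups did not overlap. Each gave p = 0.1 in a two-sided exact permutation test, the smallest that 3 tumors against 3 allow, and 0.125 after Benjamini-Hochberg adjustment over 5 pairs, so none can pass 0.05. Suv39h1 against Suv39h2 averaged 1.598 ± 0.14 with vehicle and 2.41 ± 1.21 with RGS (SD, n = 3 each), with overlapping groups and p = 0.4 in the same exact test.

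**Figure D3:**
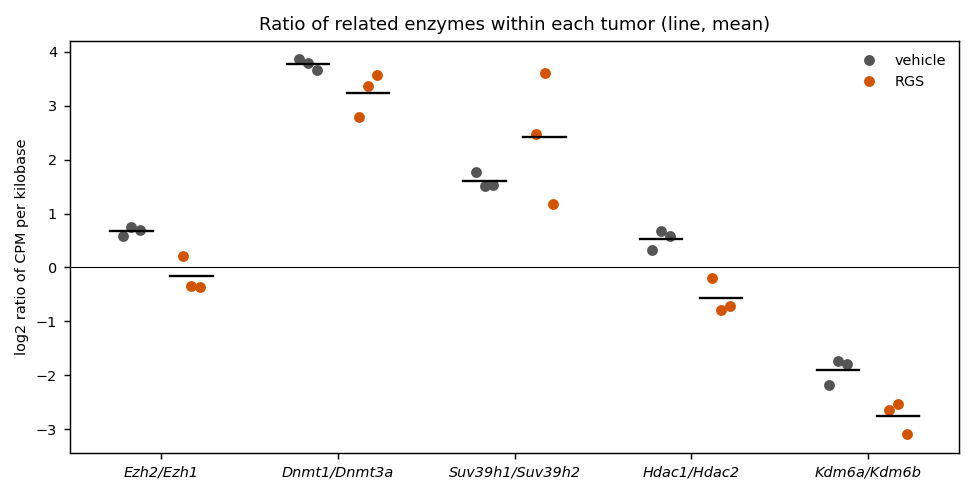
Log2 ratio of CPM per kilobase (y axis) of 5 pairs of related enzymes in each of the 3 vehicle (grey) and 3 RGS (orange) tumors, with group means as lines. The groups separate for all pairs but Suv39h1/Suv39h2, and the mean of Hdac1/Hdac2 crosses 0 from 0.53 to -0.56.

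These enzymes work in complexes, and 40 partner subunits were tested from a list of 42, of which 8 were higher and 6 lower (20% and 15%, near the 16.3 and 16.5% of all tested genes). The higher gene with the smallest adjusted p was Sin3b, a scaffold of the SIN3 deacetylase complex, at 118, 132 and 140.3 CPM in the vehicle tumors and 287, 366 and 366 CPM in the RGS tumors, a log2 fold change of 1.39 ± 0.16 (SE) with an adjusted p of 2.51e-06. The lower one was Rbbp4, a histone-binding subunit of PRC2, NuRD and SIN3, at 352, 534 and 583 CPM in the vehicle tumors and 277, 246 and 248 CPM in the RGS tumors, a log2 fold change of -0.93 ± 0.18 (SE) with an adjusted p of 0.000515. Jarid2, which helps PRC2 onto chromatin, had 1.39 (adjusted p = 0.000152), and Phf19, a Polycomb-like subunit, had -1.59 (adjusted p = 0.00493). Of the deacetylase partners, Chd4, the NuRD remodeler, had 0.72 (adjusted p = 0.00402), while Rcor3, a CoREST subunit, had -1.78 (adjusted p = 0.00197). These 4 were picked from the list after their values were seen. Of 25 tested enzymes that act on the same marks but have other symbols, 6 were higher and 3 lower (24% and 12%). Prdm2, an H3K9 methyltransferase, had 1.35 (adjusted p = 2.3e-05), and Hat1, which acetylates newly made histone H4, had -0.89 (adjusted p = 0.00287).

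**Figure D4:**
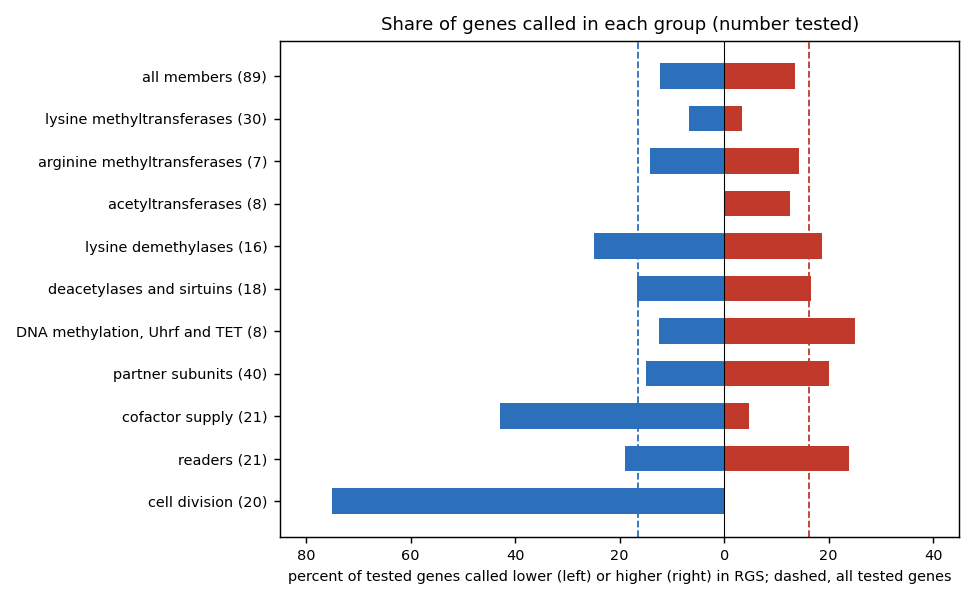
Percent of tested genes called lower (blue, left) or higher (red, right) with RGS in each group of enzymes and in 4 lists of related genes, with the number tested in parentheses. Dashed lines mark all tested genes at 16.5% lower and 16.3% higher. The cell division list, set with earlier results of these data known, had 15 of 20 lower.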

How the data were processed

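RNA was extracted from 6 YUMM3.3 tumors kept in RNAlater and sequenced as paired-end reads of 150 bases. Per the submitters' processing notes, cutadapt 1.18, FastQC 0.11.7, STAR 2.7.1a, featureCounts 1.6.4 and the mm10 build were used. The authors deposited raw counts per gene, 1 column per tumor, without normalization. The strand setting, the handling of multi-mapped reads and the annotation are not given in the sources used here. The uncalled members Prmt6 (23.4%), Hdac4 (22.4%), Hdac11 (15.4%) and Suv39h1 (14.6%) also share exon bases with a gene on the opposite strand. Gene positions equal those of GENCODE M21 (GRCm38) for all 38971 shared identifiers.

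Counts were analysed in R 4.3.3 with edgeR 4.0.16: the study's filter (a group median of 5 or more counts in either group), TMM scaling, and quasi-likelihood F tests whose p-values were adjusted over all 15355 genes that passed (Benjamini-Hochberg). The study itself used DESeq2, which was run as an alternative (version 1.42.0), as was voom from limma 3.58.1. The SE is the log2 fold change over the square root of F, and intervals cover 95%. CPM is taken on the TMM-scaled library, and CPM per kb divides it by the deposited gene length. Ratios of paralogs used a prior of 0.5 CPM, and of 6 pairs set, Kdm5c/Kdm5d could not be compared, so p-values were adjusted over 5. The members and lists were chosen with earlier results of these data known. Tumor values are given for members called at a log2 change of 1 or more in size, for the smallest adjusted p in each role group and for 28 core enzymes set by name, and Hdac5, Hdac7, Kdm3a, Kdm3b, Prmt2, Uhrf2 and context genes were added because they were called. In the other lists, the gene with the smallest adjusted p in a direction is named. Promoters are RefSeq windows, found for 77 of 94 members. Totals per tumor ran from 13837932 to 32555494 counts. Values of some genes on the lists are not reported here.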

Additional observations from a re-analysis of the deposited data

How the results depend on the processing

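Of the 23 called members, 11 kept their call and direction under all 11 other fits and all 6 fits without 1 tumor: Ezh2, Suz12, Prmt7, Dnmt3a, Kdm1b, Kdm5b, Kdm5c, Kdm6b, Hdac2, Hdac6 and Hdac9. The share of all called genes that did so was not computed, so 11 of 23 cannot be set against it. The counts of 12 higher and 11 lower became 6 and 16 with library size only (median -0.071), 23 and 17 with voom quality weights, 2 and 3 at a log2 change of 1 or more in size, and 6 and 6 at an adjusted p under 0.01. With library size only, all tested genes split into 1870 higher and 3152 lower, against 2503 and 2533, and with voom quality weights into 3407 and 3408. Without 1 tumor, higher members numbered 7 to 17, lower members 7 to 12, and the median was -0.036 to 0.064, below 0 without RGS replicate 12. Over all tested genes the same fits gave 1776 to 2698 higher and 1717 to 2551 lower. Among the members given tumor by tumor, several uncalled genes changed sign. With library size only they were Dot1l (-0.063), Uhrf1 (-0.12), Kdm5a (-0.080) and Hdac3 (-0.0068), with upper-quartile factors Uhrf1 (-0.00884) and with voom quality weights Nsd1 (0.099). Without 1 tumor the log2 fold changes ran from -0.19 to 0.049 for Nsd1, -0.27 to 0.013 for Setd2, -0.15 to 0.26 for Dot1l, -0.074 to 0.13 for Uhrf1, -0.0082 to 0.11 for Kdm5a and -0.20 to 0.086 for Kdm6a, and these 6 genes changed sign in at least 1 such fit. The cause was not tested. No paired analysis was possible because the groups share no replicate number. The lowest RGS tumor held 16 counts of Suv39h2, and the SE of its log2 fold change was 0.48.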

Other observations

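Genes listed for the supply and use of the cofactors of these enzymes were lower with RGS more often than higher. Methyltransferases use S-adenosylmethionine, and the demethylases with a jumonji domain and the TET enzymes use 2-oxoglutarate, while sirtuins use NAD. The list mixes genes that make a cofactor with genes that use one up (Nnmt, Gnmt, Amd1 and Ogdh), so its counts do not measure supply. Of its 21 tested genes, 9 were lower and 1 was higher, against 16.5% lower and 16.3% higher of all tested genes. Their median log2 fold change was -0.49. Nampt, the rate-limiting enzyme of NAD salvage, stood at 239, 318 and 362 CPM in the vehicle tumors and 91.1, 75.8 and 91.0 CPM in the RGS tumors, a log2 fold change of -1.83 ± 0.18 (SE) with an adjusted p of 2.86e-07. Mtr, methionine synthase, was the 1 higher gene, at 19.2, 19.1 and 15.2 CPM in the vehicle tumors and 24.9, 28.3 and 29.7 CPM in the RGS tumors, a log2 fold change of 0.63 ± 0.22 (SE) with an adjusted p of 0.0346. Mat2a, which makes S-adenosylmethionine in most cells, was listed at 0 or 1 counts in every tumor. Its counts are uncertain, and 11.3% of its exon bases are shared with Particl on the opposite strand. Whether the low count arose in the counting of reads was not tested.

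Of 21 tested readers of methylated histones and DNA, 5 were higher and 4 lower (23.8 and 19.0%, against 16.3 and 16.5% of all tested genes). L3mbtl3, a reader of methylated lysines, stood at 12.8, 8.73 and 9.50 CPM in the vehicle tumors and 27.6, 28.2 and 24.2 CPM in the RGS tumors, a log2 fold change of 1.36 ± 0.25 (SE) with an adjusted p of 0.000292. Cbx7, the Polycomb protein that binds trimethylated H3K27, stood at 44.9, 49.5 and 52.2 CPM in the vehicle tumors and 23.0, 15.4 and 14.2 CPM in the RGS tumors, a log2 fold change of -1.48 ± 0.22 (SE) with an adjusted p of 4.27e-05. Among 15 tested genes of the response to low oxygen, in which several jumonji demethylases are known to take part, 7 were lower and 1 was higher (46.7 and 6.67%, against 16.5 and 16.3% of all tested genes). Adm, adrenomedullin, stood at 48.9, 60.8 and 43.9 CPM in the vehicle tumors and 3.88, 6.33 and 10.3 CPM in the RGS tumors, a log2 fold change of -2.91 ± 0.29 (SE) with an adjusted p of 5.43e-07, and Slc2a1, the glucose transporter GLUT1, at 319.7, 283 and 245 CPM in the vehicle tumors and 409, 408 and 388 CPM in the RGS tumors, a log2 fold change of 0.51 ± 0.15 (SE) with an adjusted p of 0.0148.

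Among 20 cell division genes, Bub1, a kinase of the spindle checkpoint, had the smallest adjusted p and stood at 50.8, 45.6 and 54.0 CPM in the vehicle tumors and 6.53, 7.91 and 6.98 CPM in the RGS tumors, a log2 fold change of -2.81 ± 0.22 (SE) with an adjusted p of 1.82e-08. Keratinocyte markers summed to 0.40 to 1.72 CPM with vehicle and 6.77 to 22.8 CPM with RGS, most of it Ivl (involucrin), which had 0 counts in the 3 vehicle tumors and 5.87, 11.4 and 19.6 CPM in the RGS tumors. The part of skin cells in the results was not tested.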
